A study of Mus musculus with 2 samples.

Results

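The mir-29 family of the mouse consists of 4 hairpin genes, Mir29a, Mir29b-1, Mir29b-2 and Mir29c, and its level was read from microRNA sequencing of embryonic hindbrain. The members were the rows of the deposited count tables whose Ensembl gene identifiers belong to these 4 genes, 4 of 1973 gene rows. Hindbrain was dissected from healthy B6NCrl mouse embryos at day 13.5, with males and females pooled, and 2 libraries of short RNA, replicate 1 and replicate 2 of the labels, were made from it. There was 1 group, with no treatment, genotype or time course, so the results are levels in hindbrain and the difference between its libraries. The labels name separate biosamples but 1 donor identifier for both, so the spread between the libraries may be partly technical.

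MicroRNAs are cut from a hairpin precursor as a short duplex, and the strand retained in the Argonaute protein pairs with messenger RNAs through its seed, bases 2 to 8 from the 5′ end. In the mir-29 family the retained strand is usually the one from the 3′ arm of the hairpin (3p), while the 5′ arm (5p) is mostly discarded. The family is known for repressing collagens and other extracellular matrix genes and the DNA methyltransferases Dnmt3a and Dnmt3b. In brain it is known to become abundant late, as neurons and astrocytes mature, and in mature neurons it represses pro-apoptotic BH3-only genes. Messenger RNAs were not measured in these libraries.

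The 4 genes encode 3 different 3p sequences, shown because the letters in which they differ decide which hairpin a read can be placed on. They were taken from RefSeq (build GRCm38.p6), where all 4 members matched by symbol. Capitals mark the seed.
miR-29a-3p, from Mir29a: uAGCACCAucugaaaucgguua
miR-29c-3p, from Mir29c: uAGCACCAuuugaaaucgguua
miR-29b-3p, from both Mir29b-1 and Mir29b-2: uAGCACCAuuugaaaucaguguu

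All 4 hairpins carry the seed AGCACCA on the 3p arm, and among the 1738 mature sequences of the table these 4 entries were the ones with that seed. Counted from 1 at the 5′ end, miR-29a-3p and miR-29c-3p differ by the single substitution C10U. Between miR-29c-3p and miR-29b-3p the substitutions are G18A, U21G and A22U, so the first 17 nt of these sequences are identical. Among the 1894 hairpins of the gene rows with a sequence in GENCODE M21, whole miR-29a-3p and whole miR-29c-3p each occur in 1, and whole miR-29b-3p occurs in 2.

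The Mir29b hairpins are shown because they hold the same 3p sequence, marked here by capitals.
Mir29b-1, chr6:31063023-31063093, minus strand: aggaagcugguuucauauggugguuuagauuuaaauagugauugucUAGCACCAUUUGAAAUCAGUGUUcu
Mir29b-2, chr1:195037040-195037120, plus strand: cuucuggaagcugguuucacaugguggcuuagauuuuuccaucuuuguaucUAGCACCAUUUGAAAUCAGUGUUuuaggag

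A read of miR-29b-3p fits both hairpins equally, whereas the 5p arms differ. The 5p sequences are shown with bases 2 to 8 in capitals.
miR-29b-1-5p: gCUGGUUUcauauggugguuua
miR-29b-2-5p: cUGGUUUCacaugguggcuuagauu

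Shifted by 1 nt, these 5p sequences match at 19 of 21 positions. Of the windows of 20 nt in each hairpin, 9 of 52 in Mir29b-1 and 6 of 62 in Mir29b-2 recur in another hairpin, and all 4 windows inside miR-29b-3p do. None of the windows inside either 5p arm recurs. Mir29c has 3 of 69 windows in common with Mir29b-1, none of them wholly inside miR-29c-3p, and Mir29a has 0 of 69. In the deposited tables reads that map to several places were listed in a row of their own, 33.9% of all reads in replicate 1 and 34.5% in replicate 2, and are in no gene row. The rows of Mir29b-1 and Mir29b-2 therefore hold reads that could be placed on 1 hairpin, and are not a measure of miR-29b-3p. How many of the multimapping reads were miR-29b-3p was not tested.

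**Figure D1:**
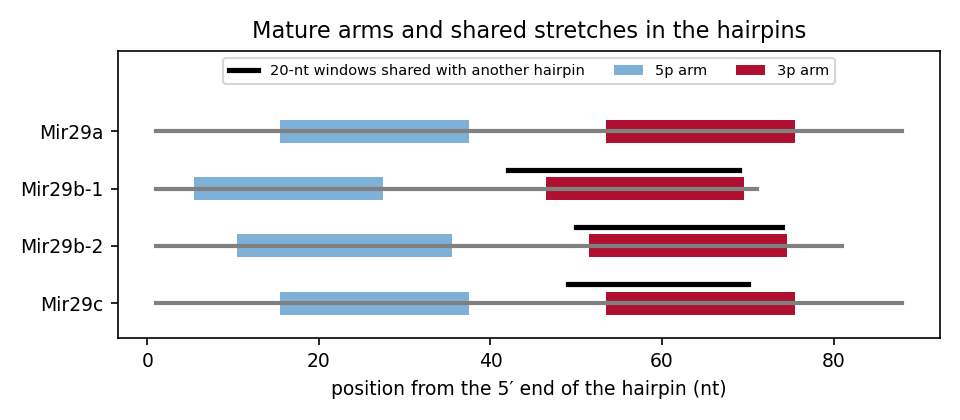
Map of the 4 mir-29 hairpins by position from the hairpin's 5′ end in nt, with the 5p arm in blue, the 3p arm in red and, as black bars, the stretch covered by 20-nt windows that recur in another hairpin. The bars cover the whole 3p arm of Mir29b-1 and Mir29b-2, reach part of that of Mir29c and are absent from Mir29a.

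The members lie as pairs at a locus on chromosome 6 and a locus on chromosome 1 of GRCm38, the assembly also called mm10. On chromosome 6, Mir29a (ENSMUSG00000065610.1, chr6:31062660-31062747, minus strand) is intergenic and lies 275 nt from Mir29b-1 (ENSMUSG00000065604.1), which overlaps an exon of the long non-coding RNA gene Gm27019 by 2 nt on the same strand. On chromosome 1, Mir29c (ENSMUSG00000065548.1, chr1:195037547-195037634, plus strand) lies 426 nt from Mir29b-2 (ENSMUSG00000065412.2). Both are inside an exon of the non-coding host gene A330023F24Rik, and on the opposite strand both overlap a UTR of Cd46. The identifiers of Mir29b-1 and Mir29b-2 carry an older version in the deposited tables than in GENCODE M21, so the extents used for counting may differ from the coordinates given here.

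Among reads placed on 1 hairpin, nearly all of those on the mir-29 family came from Mir29a and Mir29c. Reads of miR-29b-3p that fit both Mir29b hairpins are not included, so the family sums given here are lower limits. Levels are given in CPM, a gene's counts divided by the total over all gene rows of the same library and multiplied by 1000000. That total was 3006571 in replicate 1 and 4508244 in replicate 2. A sequenced short RNA gives 1 read whatever the length of its hairpin, so CPM were not divided by length unless stated. The 4 members summed to 515 counts in replicate 1, or 171 CPM (exact Poisson 95% interval 157 to 187), and to 881 counts in replicate 2, or 195 CPM (183 to 209). The mean was 183 ± 17.1 CPM (SD, n = 2), which is 0.0183% ± 0.00171 of the counted reads. These intervals, and those below, cover counting error only.

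Mir29c, the chromosome 1 member whose 3p sequence is found in no other hairpin, had the most reads placed on 1 hairpin. Whether miR-29b-3p lay above or below it cannot be read from the gene rows. Mir29c had 277 counts in replicate 1 and 475 in replicate 2. These are 92.1 CPM (exact Poisson interval 81.6 to 104) and 105 CPM (96.1 to 115), a mean of 98.7 ± 9.36 CPM (SD, n = 2). Both libraries lay close together, and the counting intervals of the libraries overlapped.

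Mir29a, the chromosome 6 member that differs from Mir29c by 1 base in the 3p sequence, came next. It had 230 counts in replicate 1 and 394 in replicate 2, or 76.5 CPM (exact Poisson interval 66.9 to 87.1) and 87.4 CPM (79.0 to 96.5). The mean was 81.9 ± 7.70 CPM (SD, n = 2). Both Mir29a values were below both Mir29c values, so their ranges over the libraries did not overlap.

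Mir29b-1, the neighbour of Mir29a, had 5 counts in replicate 1 and 3 in replicate 2. These are 1.66 CPM (exact Poisson interval 0.540 to 3.88) and 0.665 CPM (0.137 to 1.94). Mir29b-2, the neighbour of Mir29c, had 3 counts in replicate 1 and 9 in replicate 2, or 0.998 CPM (0.206 to 2.92) and 1.996 CPM (0.913 to 3.79). Replicate 1 was the higher library for Mir29b-1 and the lower one for Mir29b-2, and their intervals overlapped throughout, so no order between the Mir29b genes was detectable at this depth. Both genes stayed under 10 counts in each library, the minimum used here for detection, and near the 3 counts that a count of 0 allows.

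**Figure D2:**
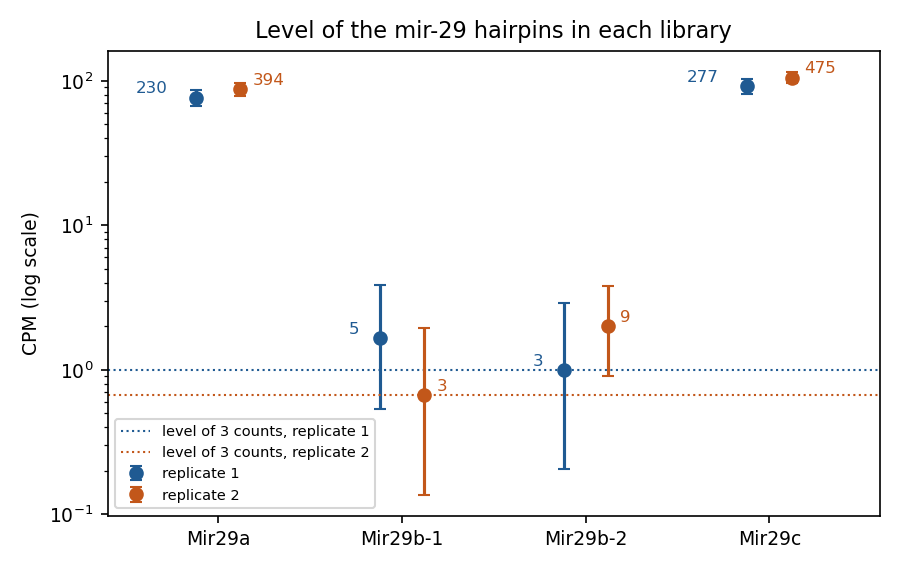
Level of each mir-29 hairpin in CPM on a log axis, with replicate 1 in blue and replicate 2 in orange, exact Poisson 95% intervals as bars and the counts printed beside the points. Mir29a and Mir29c lie near 100 CPM in both libraries, while Mir29b-1 and Mir29b-2 lie near the dotted lines that mark 3 counts in each library.

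The reads placed on 1 hairpin were divided over the family alike in both libraries, with overlapping counting intervals. Mir29c made up 53.8% of the family's counts in replicate 1 (exact Clopper-Pearson 95% interval 49.4 to 58.2) and 53.9% in replicate 2 (50.6 to 57.2). Mir29a made up 44.7% in each (40.3 to 49.1 in replicate 1, 41.4 to 48.1 in replicate 2). The Mir29b genes together had 8 of 515 counts, or 1.55% (0.673 to 3.04), and 12 of 881, or 1.36% (0.706 to 2.37).

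Of the reads on Mir29a and Mir29c, the share of Mir29a was 45.4% in replicate 1 (exact Clopper-Pearson interval 41.0 to 49.8) and 45.3% in replicate 2 (42.0 to 48.7). Both intervals lie below an equal share. Mir29c thus had 1.20 times the counts of Mir29a in replicate 1 (1.01 to 1.44) and 1.21 times in replicate 2 (1.05 to 1.38). The log2 ratio of Mir29a to Mir29c was -0.27 in each library. Their hairpins have the same annotated length of 88 nt, so dividing by length leaves the ratio as it is. Per 100 nt of hairpin the levels were 112 ± 10.6 CPM for Mir29c, 93.1 ± 8.76 CPM for Mir29a, 1.85 ± 0.872 CPM for Mir29b-2 and 1.64 ± 0.994 CPM for Mir29b-1 (SD, n = 2), in the same order.

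By locus, again over reads placed on 1 hairpin, the chromosome 6 pair held 45.6% of the family's counts in replicate 1 (exact Clopper-Pearson interval 41.3 to 50.0) and 45.1% in replicate 2 (41.7 to 48.4), against the chromosome 1 pair. Within each locus the neighbours were far apart in counts. Mir29a had 46 times the counts of Mir29b-1 in replicate 1 (exact interval 19.4 to 143) and 131 times in replicate 2 (44.6 to 640). Mir29c had 92.3 times the counts of Mir29b-2 in replicate 1 (31.3 to 450) and 52.8 times in replicate 2 (27.6 to 116). These ratios compare reads placed on 1 hairpin, from which reads of miR-29b-3p that fit both Mir29b hairpins are left out.

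With at least 10 counts in both libraries as the rule, 356 of the 1973 gene rows were detected, among them 2 of the 4 members, Mir29a and Mir29c. In mean CPM Mir29c ranked 203 and Mir29a 215 among the detected genes. The median detected gene had 166 CPM, and 43.0% of the detected genes lay below Mir29c and 39.6% below Mir29a. Among all gene rows Mir29b-2 ranked 427 and Mir29b-1 ranked 455, while 1256 rows had no count in either library.

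The genes next to Mir29c in this order were Mir451a, an erythroid microRNA, and Mir412 above it, and Mir33, which lies within a sterol-regulatory gene and acts on cholesterol transport, and Mir503 below it. Their means were 105 ± 67.1, 103 ± 12.9, 96.7 ± 8.81 and 96.3 ± 1.59 CPM (SD, n = 2). Next to Mir29a stood Mir670 and Mir429, a relative of the epithelial Mir200 genes, above it, at 86.6 ± 15.6 and 84.5 ± 36.7 CPM, and Mir3475 and the mural Mir145a below it, at 81.6 ± 5.74 and 80.6 ± 2.65 CPM. The range over the libraries of each of these 8 neighbours overlapped that of its member. They were chosen for nearness in mean CPM, so this overlap is no test of a difference. Around Mir29b-1 the order was set by single reads: Mir2137, Mir669f and Mir6965 had the same 5 and 3 counts, and Mir802 had 3 and 6. Likewise Mir3474 and Mir7651 had the same 3 and 9 counts as Mir29b-2, next to Mir5134 with 8 and 2 and Mir6975 with 6 and 5.

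**Figure D3:**
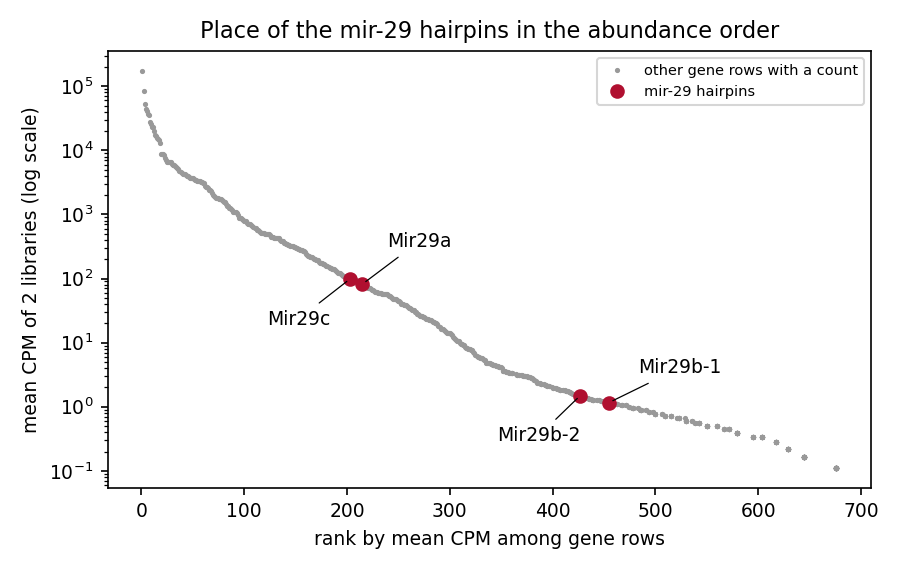
Mean CPM of the 2 libraries on a log axis against rank among the 717 gene rows with a count, with the mir-29 hairpins in red. Mir29c (rank 203) and Mir29a (rank 215) lie within the first 356 ranks, near 100 CPM, and Mir29b-2 (rank 427) and Mir29b-1 (rank 455) lie beyond them, near 1 CPM.

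Both detected members were higher in value in replicate 2, by nearly the same amount, and neither passed the test of a difference between the libraries. With library sizes scaled by edgeR's trimmed mean of M-values (TMM), the log2 ratio of replicate 2 over replicate 1 was 0.18 for Mir29a (counting interval -0.06 to 0.42) and 0.18 for Mir29c (-0.04 to 0.40). Each gene's counts were set against the scaled library sizes in an exact binomial test, two-sided, and p-values were adjusted by Benjamini-Hochberg over all 356 detected genes. In this exact test the adjusted p was 0.236 for Mir29a and 0.178 for Mir29c, from unadjusted values of 0.141 and 0.101. So 0 of the 2 tested members differed, at the adjusted or the unadjusted level of 0.05, against 45.2% of all detected genes. Neither lay beyond 1.5-fold, which 9.83% of the detected genes did. The test sets 1 library against the other, counts sampling error as the only error and says nothing on conditions.

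The size of the difference was usual for these libraries. The median absolute log2 ratio was 0.17 over the 356 detected genes. It was 0.19 over the 60 other genes with a mean of 200 to 600 counts, a range chosen after the counts of Mir29a and Mir29c were seen. Of these 60 genes, 19 passed the exact binomial test, which can pass smaller ratios in genes with more counts. For the whole family, Mir29b included, the log2 ratio was 0.18 (counting interval 0.02 to 0.34), an interval that leaves out the spread between replicates. That spread was a common biological coefficient of variation of 0.140 in edgeR. The log2 ratio of Mir29b-1 was -1.33 (counting interval -4.02 to 1.03) and that of Mir29b-2 was 0.99 (-1.02 to 3.51), so no difference was detectable for either at this depth.

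**Figure D4:**
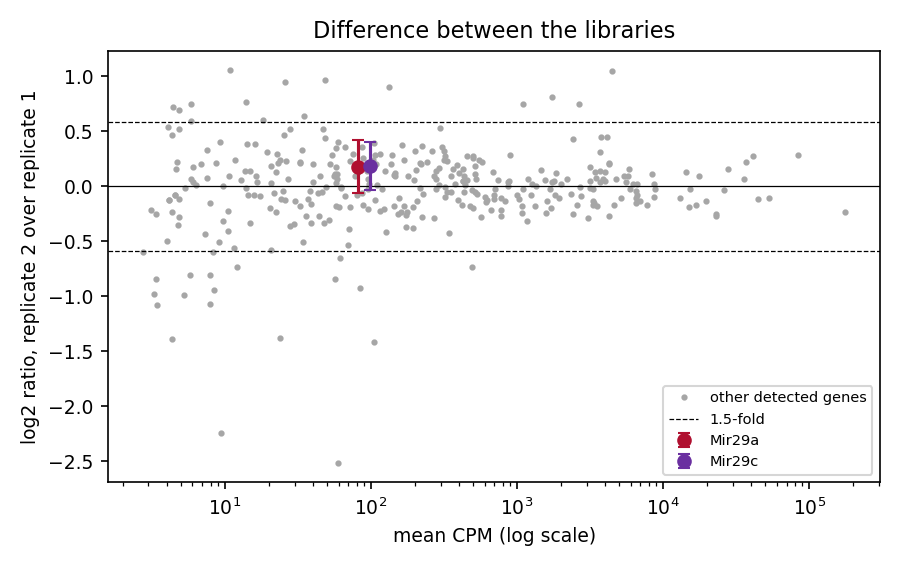
Log2 ratio of replicate 2 over replicate 1 with TMM scaling against mean CPM on a log axis for the 356 detected genes, with Mir29a in red, Mir29c in purple, their counting intervals as bars and dashed lines at 1.5-fold. Both members sit at 0.18, inside the dashed lines, and their intervals include 0.

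The tissue was checked by lists of marker microRNAs. The neural list had 8 of 9 genes with a row, of which 4 were detected. It summed to 7990 ± 94.4 CPM (SD, n = 2), most of it Mir137, a regulator of neuronal differentiation, at 6207 ± 105 CPM, followed by Mir128-1, a neuronal microRNA, at 699 ± 33.9 CPM. The multicopy members, chosen after their values were seen, were uneven: Mir9-3 had a mean of 573 ± 65.5 CPM and Mir9-2 a mean of 3.16 ± 0.236 CPM, though both mature sequences of each are shared with another gene. The means of the 3 Mir124a genes ran from 1.22 to 3.55 CPM. Reads that fit several genes are in none of these rows. Whether the Mir124a genes share a mature sequence was not looked up, as none of theirs was found in RefSeq as used here. Their means are therefore not a measure of mature miR-124. Between the libraries the markers of choroid plexus and multiciliated cells differed most in sum, from 4991 to 9694 CPM, led by Mir449a of multiciliated cells and Mir204, abundant in choroid plexus, with 6 of 7 detected and none at 0. The mesenchyme list, with 4 of 5 detected and none at 0, went from 4539 CPM in replicate 1 to 3844 in replicate 2, led by the cartilage Mir140 and by Mir214. Their part in the values of Mir29a and Mir29c was not tested. In a dissected tissue, fewer cells of a type and less RNA per cell cannot be told apart.

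Among microRNAs known to increase as neurons and glia mature, most had more reads than Mir29a and Mir29c. The 11 genes of the neural maturation list were all detected and summed to 8169 CPM in replicate 1 and 7959 CPM in replicate 2, which is 47.7 and 40.7 times the counted mir-29 family. Reads that fit several genes are left out of both sums. Its highest members were Mir219a-2, which promotes oligodendrocyte differentiation, at 2731 ± 103 CPM and Mir153, a neuronal microRNA, at 1579 ± 180 CPM (SD, n = 2). Of the 11 genes, 9 were above Mir29c in both libraries. Mir129-2 was above it in replicate 1 and below it in replicate 2, at 95.8 and 94.9 CPM, and Mir129-1 was below it in both, at 67.5 and 83.6 CPM. In the exact test between the libraries, 4 of the 11 passed as higher in replicate 2 and 4 as lower, with a median log2 ratio of 0.04, where the median of all detected genes was 0.01. Past this test 22.5% of all detected genes were higher and 22.8% lower in replicate 2.

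The other lists lay above the counted mir-29 family in sum too, with multimapping reads left out of every sum. The progenitor list of the mir-17 cluster, active in dividing cells, had 322 and 302 times the summed CPM of the mir-29 family in replicates 1 and 2, led by Mir17 at 36087 ± 1368 CPM and Mir20a at 14286 ± 992 CPM (SD, n = 2). The endothelial and mural list, with 3 of 4 genes having a row, had 159 and 129 times, led by the endothelial Mir126a and the mural Mir143. The blood list was the nearest, at 2.84 and 2.31 times. It had 5 of 6 genes with a row, and Mir142, which had none, adds nothing to its sum. Its highest members were Mir155 of lymphoid and myeloid cells at 164 ± 30.9 CPM and the myeloid Mir223 at 147 ± 7.80 CPM. Mir155 and Mir223 were above Mir29c in both libraries, Mir144 and Mir150 below it in both, and Mir451a above it only in replicate 1. These are levels in the same libraries set side by side, with no test.

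**Figure D5:**
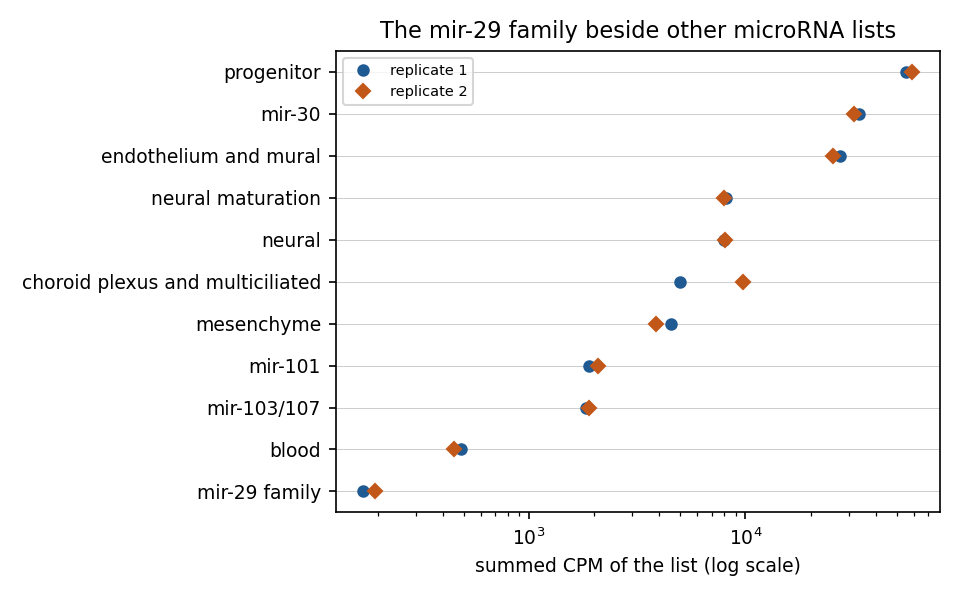
Summed CPM of the mir-29 family and of the marker lists and comparison families on a log axis, with replicate 1 as blue circles and replicate 2 as orange diamonds. The mir-29 family is the lowest row at 171 and 195 CPM, and the blood list is the nearest above it.

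Beside 3 other small families spread over several loci, the mir-29 family had the lowest sum of reads placed on 1 hairpin in both libraries. The mir-101 family, known for repressing the histone methyltransferase Ezh2, had 11.0 and 10.7 times its summed CPM in replicates 1 and 2, the family of Mir103 and Mir107, carried in introns of pantothenate kinase genes, 10.7 and 9.72 times, and the mir-30 family 195 and 162 times. Within these families, genes with and without a mature sequence shared with another gene can be set side by side, a choice made after the values were seen. Mir103-1 and Mir103-2 stood at 4.60 ± 0.393 and 57.4 ± 1.27 CPM beside Mir107, whose mature sequences are its own, at 1800 ± 51.8 CPM (SD, n = 2). Mir30c-1 and Mir30c-2 stood at 57.0 ± 3.46 and 35.8 ± 4.46 CPM, beside Mir30a at 8821 ± 33.5 CPM and Mir30e at 16894 ± 1314 CPM. The remaining mir-30 genes were Mir30b at 124 ± 9.52 CPM and Mir30d at 6631 ± 116 CPM. No mature sequence of either was found in RefSeq as used here, so whether theirs are shared is not known. Of the mir-101 family, 2 of 3 listed genes had a row. Neither of these shares a mature sequence with another gene, and both were above Mir29c in both libraries. Mir103-1, Mir103-2, Mir30c-1 and Mir30c-2 were below Mir29a in both libraries but had more counts than either Mir29b gene. Mir219a-2 (2731 CPM), Mir138-1 (863 ± 23.3 CPM) and Mir9-3 also have a mature sequence shared with another gene. The counts do not separate the arms, so the part of sharing in any of these levels was not tested.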

How the data were processed

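Short RNA of embryonic hindbrain was sequenced in 2 libraries. The authors deposited unnormalized read counts for each gene. Their README names mm10 and GENCODE M4, and no aligner or counter (not given in the sources used here). Of 3 count columns (either strand and each strand), the one used was the strand that held 98.1% of gene counts in both libraries. Library totals left out the 4 summary rows (unmapped, multimapping, no feature, ambiguous). Gene rows held 49.0% of 6141045 reads in replicate 1 and 47.5% of 9486700 in replicate 2.

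Names and positions came from GENCODE M21, matched on identifiers without version (1894 of 1973 rows), and sequences from RefSeq (GRCm38.p6). Library sizes used edgeR 4.0.16 TMM over detected genes. With 1 group, edgeR's quasi-likelihood test could not be run, so each detected gene was compared by a two-sided exact binomial test (scipy 1.17.1). The code was tried on simulated data with counting error only, without the spread between replicates found in these libraries. Totals, DESeq2 1.42.0 size factors, other count minimums, the either-strand column and each library alone were tried. Named genes were the members, the 2 nearest genes above and below each in mean CPM and the 2 highest of each list. Members and lists were chosen with earlier results of these data known.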

Additional observations from a re-analysis of the deposited data

How the results depend on the processing

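The family sum of 183 CPM became 88.4 when all reads, summary rows included, formed the denominator of CPM, and 209 CPM per 100 nt when divided by hairpin length. Both are changes of scale. It ranged from 171 to 195 CPM with 1 library left out. The share of Mir29a among reads on Mir29a and Mir29c ranged from 45.3% to 45.4%, that of the chromosome 6 locus from 45.1% to 45.6% and that of the Mir29b genes from 1.36% to 1.55%. The number of genes past the exact binomial test ran from 151 to 170 over the 5 alternatives. Neither Mir29a nor Mir29c passed it or changed direction in any of them, with adjusted p from 0.191 to 0.475 for Mir29a and 0.147 to 0.414 for Mir29c. No paired analysis was possible because there is 1 group. With fewer than 10 counts per library, no order or difference of the Mir29b genes could be resolved, and miR-29b-3p itself was not measured. The tables do not separate 5p from 3p reads.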

Other observations

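Across all gene rows with a mature sequence in the RefSeq table, rows were grouped by whether a mature sequence is found letter for letter in another gene. Of 53 genes with some but not all of their mature sequences shared, the class of Mir29b-1 and Mir29b-2, 35 were detected (66.0%), with a median of 57.0 CPM over the class. The Mir29b genes were not among those detected. The counts do not separate the arms, so reads of a detected gene in this class may come from its unshared sequence. Of 34 genes with every mature sequence shared 7 were detected (20.6%), and of 829 with none shared 283 were (34.1%). This grouping rests on the mature sequences listed in RefSeq, which may lack an arm. Mir219a-2, Mir129-1 and Mir199b, all detected, had 1 listed sequence, a shared one, and so fall among genes with every sequence shared. The classes were formed after the values were seen and differ in which microRNAs they hold, so no test was made. The opposite-strand column had 0 counts for all 4 mir-29 genes in both libraries, which allows up to 3 counts, or 0.998 CPM in replicate 1 and 0.665 CPM in replicate 2.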
